A study of Arabidopsis thaliana with 34 samples.

Results

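Mt62 shoots were compared with wild-type (WT) shoots in untreated plants at 0 h, after 2 h of hypoxia and after 2 h with the nitric oxide donor DETA. The rows of these 3 comparisons were all rows of the array with a listed value in at least 1 of them, 997 of 34558. A row is 1 probe of the array, and it was listed where the submitters' empirical Bayes test gave a p of at most 0.01, with no adjustment for the number of rows stated in the sources used here. All plants were Arabidopsis thaliana of the Landsberg background, and shoots were harvested from plants 16 days old at the start of the experiment. Mt62 plants (line 6:2) carry the haemoglobin of the bacterium Vitreoscilla (VHb) in their mitochondria, WT plants carry none, and a second transgenic line, C13, carries it in the cytosol. Each transgenic group is 1 line, and the sources used here do not name the promoter that drives VHb. Hypoxia was 4% oxygen and DETA was given at 500 µM, both for 2 or 24 h, and untreated controls were taken at 0, 2 and 24 h. By the sample descriptions the 0 h comparison rests on 3 channels of Mt62 and 4 of WT, the hypoxia comparison on 4 and 4, and the DETA comparison on 4 and 3. The labels give the replicates as biological and do not say more about separate growth, so the p-values measure the spread between these samples only.

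VHb binds oxygen with high affinity, and it also converts nitric oxide to nitrate in the presence of oxygen. Plants have haemoglobins of their own that scavenge nitric oxide when oxygen is scarce. Mitochondria consume oxygen in respiration and are also a source of nitric oxide under low oxygen, and an alternative oxidase there can accept electrons when the main chain is blocked. A line with VHb in this compartment addresses what a bacterial haemoglobin at the site of respiration changes in the transcripts of the shoot, before and during treatment.

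Each value is a log fold change of Mt62 minus WT from the authors' deposited table, taken as log2. A value of 1 is therefore a level 2 times as high in Mt62. The table holds no level per group or per sample, so no SD over replicates can be given. In its place, the smallest listed value of a row over all 34 columns of the table bounds that row's standard error from above. This bound is given after ± below, and the median over all rows was 0.186 for 4 channels against 4 and 0.201 for 3 against 4. Where the value given is itself the smallest of its row, its bound follows from the listing alone and adds nothing about spread. Among others this holds for AT3G16670, AT2G38380, ANK, PSK2, PDF1.2b and AT1G07050. The same bound gives each unlisted value a limit, which held in 98.6% of 4473 rows where it could be checked. Levels in the shoot are not in the table, so its identity as shoot tissue could not be checked. Of 8 root markers 6 were measured, and none was listed in the 3 comparisons. No row of the array is named for VHb, so the transgene was not checked here.

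Few transcripts differed between Mt62 and WT shoots at these times, and most of them by little. In untreated plants at 0 h 244 rows were listed, 0.706% of the array, after 2 h of hypoxia 404 rows (1.17%) and after 2 h of DETA 411 rows (1.19%). A threshold of 0.01 lists 346 rows, 1% of the array, when nothing differs. Higher in Mt62 were 95 rows at 0 h (0.275%), 215 under hypoxia (0.622%) and 203 under DETA (0.587%). Lower in Mt62 were 149 rows at 0 h (0.431%), 189 under hypoxia (0.547%) and 208 under DETA (0.602%). Untreated plants thus had 38.9% of their listed rows on the higher side, against 53.2% under hypoxia and 49.4% under DETA. The median size of a listed value was 0.48 at 0 h, 0.48 under hypoxia and 0.49 under DETA. A size of 1 or more was reached by 18, 24 and 19 rows in the same order of conditions.

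Adjusted by Benjamini and Hochberg over all rows, with p computed from the bound, 3 rows passed 0.05 at 0 h (0.00868% of the array), 4 under hypoxia (0.0116%) and 2 under DETA (0.00579%). These calls fall on 7 different rows, 5 of which were listed in all 3 comparisons. The same line contrast in the later plants, of other groups, listed 1308 rows after 24 h of hypoxia (3.78%) and 1070 after 24 h of DETA (3.1%).

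**Figure D1:**
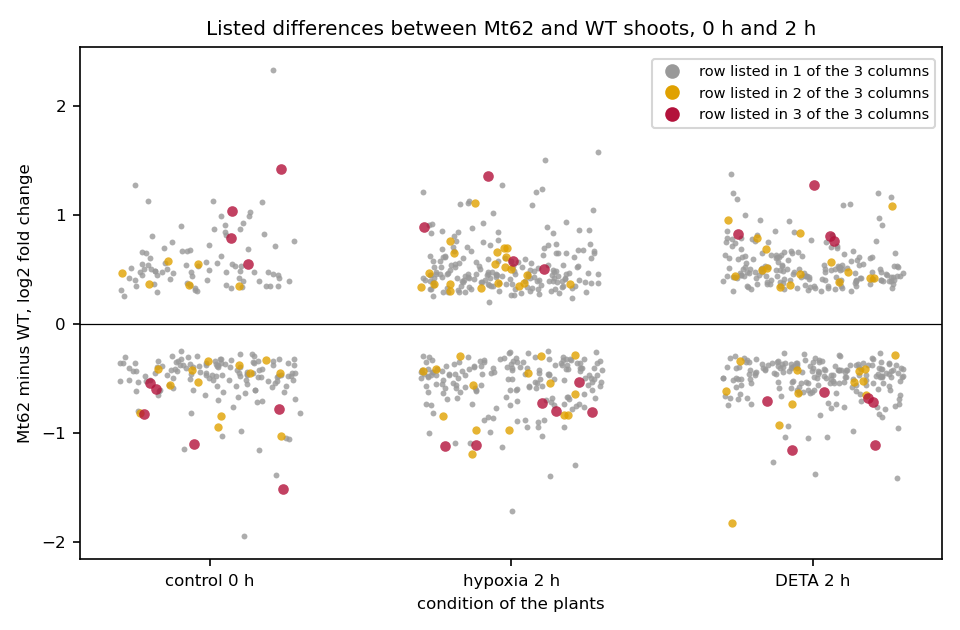
Every listed difference between Mt62 and WT (log2 fold change, vertical axis) in untreated plants at 0 h, after 2 h of hypoxia and after 2 h of DETA, with 1 point per row and sideways scatter without meaning. Rows listed in 1 comparison are grey, in 2 yellow and in 3 red; the empty band around 0 is where values were not listed, and the 10 red rows keep their side of 0 in all 3 conditions.

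The 3 comparisons share no group of plants. They share array fields, on which 3 samples were hybridised together. The 2 h hypoxia and 2 h DETA comparisons had samples of the same line together on 3 fields, the 0 h and hypoxia comparisons had samples of opposite lines together on 2 fields, and the 0 h and DETA comparisons on 1 field. Of the 997 rows 945 were listed in 1 comparison, 42 in 2 and 10 in 3. Hypoxia and DETA at 2 h had 33 rows in common, 8.17% of the hypoxia list and 8.03% of the DETA list, and all 33 had the same direction. The 0 h and hypoxia lists shared 23 rows (9.43% and 5.69%), of which 18 had the same direction. The 0 h and DETA lists shared 16 rows (6.56% and 3.89%), of which 12 had the same direction. The part of the shared fields in these counts was not tested. Of all rows of the array 0.706% were listed at 0 h, 1.17% under hypoxia and 1.19% under DETA.

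**Figure D2:**
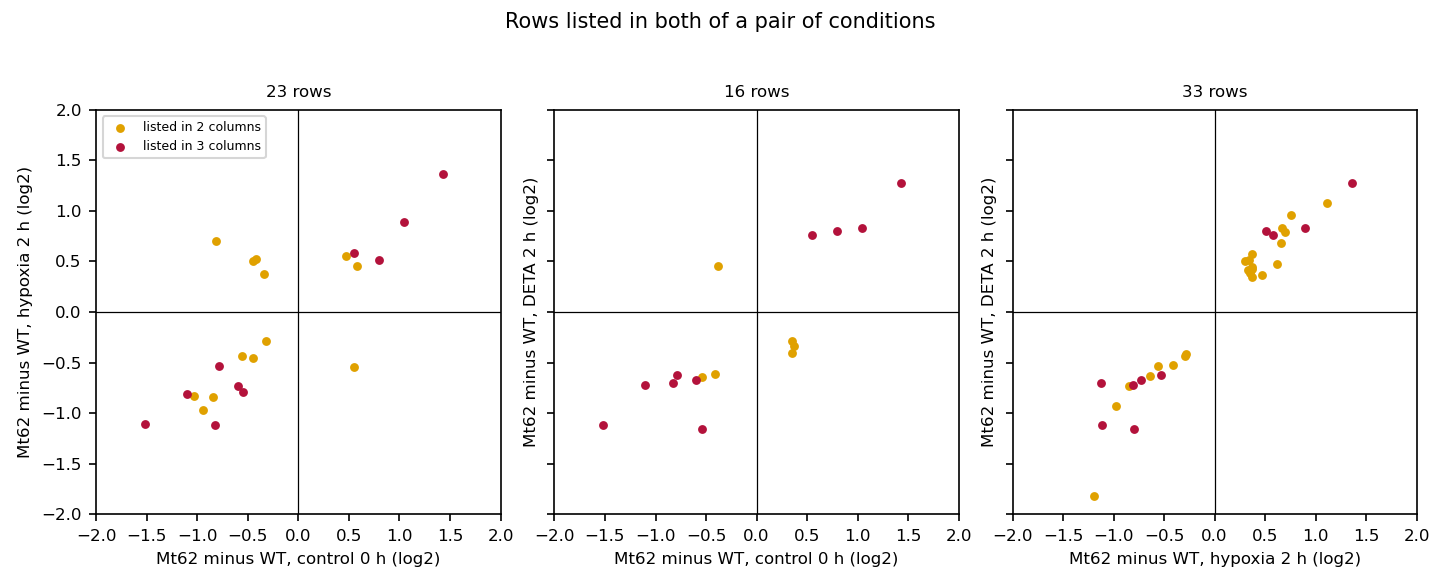
Rows listed in both of a pair of comparisons, with Mt62 minus WT (log2) in 1 condition on each axis and 1 point per row, yellow for rows listed in 2 comparisons and red for rows listed in 3. In the right panel all 33 rows lie in the quadrants of equal sign; the left and middle panels hold 5 and 4 rows of opposite sign.

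For some rows an unlisted value could be computed from other columns, because the columns add up exactly over closed loops. Of rows listed under hypoxia 91 had such a value under DETA, and 61 of them (67.0%) lay on the same side of 0. Of rows listed under DETA 51 had one under hypoxia, and 36 (70.6%) lay on the same side. Rows listed at 0 h lay on the same side in 14 of 32 cases under hypoxia (43.8%) and in 20 of 32 under DETA (62.5%). Rows listed under hypoxia lay on the same side at 0 h in 72 of 132 cases (54.5%), and those listed under DETA in 33 of 68 (48.5%). The median of the computed values along the listed direction was 0.10 for hypoxia rows under DETA and 0.14 for DETA rows under hypoxia. Only values that missed the listing threshold enter here, so their small size follows from that choice.

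TBL26 was the transcript furthest above WT among the rows listed in all 3 comparisons. It belongs to the TRICHOME BIREFRINGENCE-LIKE family, whose studied members acetylate polysaccharides of the cell wall. Its row A_84_P792258 was higher in Mt62 by 1.43 ± 0.30 at 0 h, by 1.36 ± 0.28 after 2 h of hypoxia and by 1.28 ± 0.30 after 2 h of DETA. In the later plants the difference was 2.61 ± 0.28 after 24 h of hypoxia and 1.34 ± 0.28 after 24 h of DETA. All 5 differences lie on the same side, and the one after 24 h of hypoxia stands above the other 4. The other row of this gene, A_84_P818915, went against it: it was 0.44 lower in Mt62 after 2 h of hypoxia and was listed neither at 0 h nor after 2 h of DETA. The TBL26 gene therefore has no single direction at 2 h of hypoxia, and its value belongs to the probe.

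PGL2 encodes a 6-phosphogluconolactonase, an enzyme of the oxidative pentose phosphate pathway. It was higher in Mt62 by 1.04 ± 0.29 at 0 h, 0.89 ± 0.27 under hypoxia and 0.83 ± 0.29 under DETA at 2 h. After 24 h of hypoxia it was higher by 1.07 ± 0.27, and after 24 h of DETA it was not listed, with a limit of 0.70. AGD9, a GTPase-activating protein for small GTPases of vesicle traffic, was higher by 0.55 ± 0.19 at 0 h, 0.58 ± 0.18 under hypoxia and 0.76 ± 0.19 under DETA. The row A_84_P16875, which has no gene in the annotation used here, was higher by 0.79 ± 0.16, 0.51 ± 0.14 and 0.81 ± 0.16 in the same 3 conditions. It passed the adjustment over all rows at 0 h (adjusted p of at most 0.0446) and under DETA (at most 0.0477). These 4 rows make up all the higher rows among the 10.

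The other 6 rows were lower in Mt62 in all 3 comparisons. The row A_84_P737379, without a gene in the annotation, was lower by the widest margin at 0 h, with -1.52 ± 0.24, against -1.11 ± 0.22 under hypoxia and -1.12 ± 0.24 under DETA. Its adjusted p was at most 0.000833 at 0 h and 0.0413 under hypoxia. AT5G15690 had -1.11 ± 0.19 at 0 h (adjusted p of at most 0.00452), -0.81 ± 0.18 under hypoxia and -0.72 ± 0.19 under DETA. AT1G40087 had -0.83 ± 0.22 at 0 h, -1.12 ± 0.20 under hypoxia (adjusted p of at most 0.0225) and -0.71 ± 0.22 under DETA. Both genes are named by locus only in the annotation used here.

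UPL4, a ubiquitin-protein ligase of the HECT class, had -0.59 ± 0.23 at 0 h, -0.73 ± 0.21 under hypoxia and -0.68 ± 0.23 under DETA in 1 of its 2 rows. Its other row was not listed in the 3 comparisons. The unnamed row A_84_P16055 had -0.54 ± 0.20 at 0 h, -0.80 ± 0.19 under hypoxia and -1.16 ± 0.20 under DETA, where its adjusted p was at most 0.0143. The unnamed row A_84_P792813 had -0.78 ± 0.20, -0.53 ± 0.19 and -0.63 ± 0.20. Within each of these 6 rows the 3 values differed by less than 2 times the bound of the standard error of their difference, except between DETA and 0 h for A_84_P16055.

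The 24 h comparisons used other groups of plants and were not part of the choice. They are not free of shared arrays, since samples of the same line from the 0 h or 2 h and the 24 h comparisons lay together on 5 fields and samples of opposite lines on 2. The part of these fields was not tested. After 24 h of hypoxia 9 of the 10 were listed, against 3.78% of all rows, and after 24 h of DETA 6 of the 10, against 3.1% of all rows. All 15 of these values had the direction of the earlier times. Of the 33 rows listed in 2 comparisons with the same direction, 9 were listed after 24 h of hypoxia, 7 of them in that direction, and 10 after 24 h of DETA, 9 of them in that direction. Of the 945 rows listed in 1 comparison, 66 (6.98%) were listed after 24 h of hypoxia and 112 (11.9%) after 24 h of DETA. Same directions among these were 44 of 66 and 84 of 112.

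Of 215 rows listed at 0 h alone, 22 were listed after 24 h of hypoxia and 37 after 24 h of DETA, and 20 and 35 of them kept their direction. Of 358 rows listed under 2 h of hypoxia alone, 19 were listed after 24 h of hypoxia, 8 in the same direction, and 36 after 24 h of DETA, 30 in the same direction. Of 372 rows listed under 2 h of DETA alone, 25 were listed after 24 h of hypoxia, 16 in the same direction, and 39 after 24 h of DETA, 19 in the same direction.

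**Figure D3:**
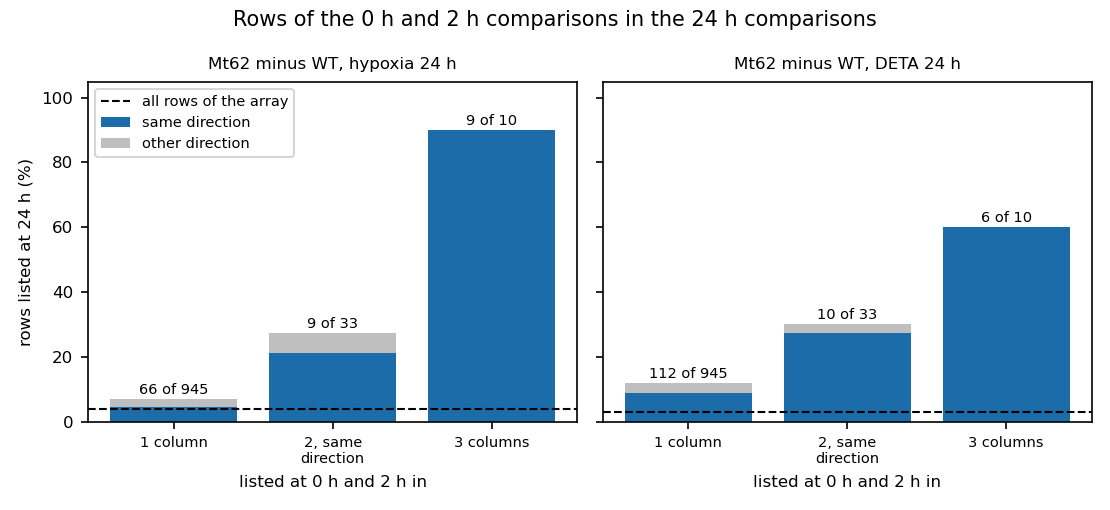
Share of rows (%) that were also listed in Mt62 minus WT after 24 h of hypoxia (left) and after 24 h of DETA (right), by the number of 0 h and 2 h comparisons that listed them; blue is the same direction, grey the other, and the dashed line is the share of all rows of the array. Of the 10 rows listed in 3 comparisons 9 and 6 were listed later, above the bars of rows listed in 2 or 1.

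Over the 24 columns that compare a treatment with a control within a line, a row of the 10 was listed in 0 to 9 columns, with a median of 2, against a median of 1 over all rows of the array. On average a treatment column listed 9.58% of the 10 rows and 15.7% of all rows. It listed 35.2% of the 33 rows listed in 2 comparisons in the same direction, and 29.4% of the 945 listed in 1. Some treatment columns hold a group whose values also chose these rows, such as Mt62 at 0 h. A row chosen through such a group can be listed in those columns for that reason alone. The shares of 35.2% and 29.4% may therefore follow in part from the choice, and that part was not tested. UPL4 and A_84_P792813 were listed in no treatment column, which makes 20% of the 10 rows, against 40.2% of all rows. A_84_P16875 was listed in 9, with values of up to 0.61 in size.

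The C13 line, with VHb in the cytosol, was compared with the same WT plants, so its differences share their WT side with those of Mt62. For A_84_P737379 Mt62 minus WT was -1.52, -1.11 and -1.12 at 0 h, hypoxia 2 h and DETA 2 h, and C13 minus WT was -1.46, -0.96 and -1.25. AT5G15690 had -1.11, -0.81 and -0.72 in Mt62, beside -0.91, -0.74 and -0.89 in C13. PGL2 had 1.04, 0.89 and 0.83 in Mt62, beside 0.95, 0.83 and 1.11 in C13. The unnamed row A_84_P16055 had -0.54, -0.80 and -1.16 in Mt62, while in C13 it was listed under DETA alone, at -1.17, with limits of 0.49 at 0 h and 0.52 under hypoxia.

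Between the lines themselves, Mt62 minus C13 could be computed at 0 h for 9 of the 10 rows and ranged from -0.21 to 0.23. Under 2 h of hypoxia it ranged from -0.15 to 0.27 over 9 rows, and under 2 h of DETA from -0.30 to 0.50 over 10 rows. It exceeded 2 times its bound for A_84_P16875 under 2 h of DETA (-0.30 ± 0.14) and, after 24 h of hypoxia, for A_84_P16875 (0.30 ± 0.14) and TBL26 (0.93 ± 0.28). TBL26 row A_84_P792258 had Mt62 minus WT of 2.61 and C13 minus WT of 1.67 in that later comparison.

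**Figure D4:**
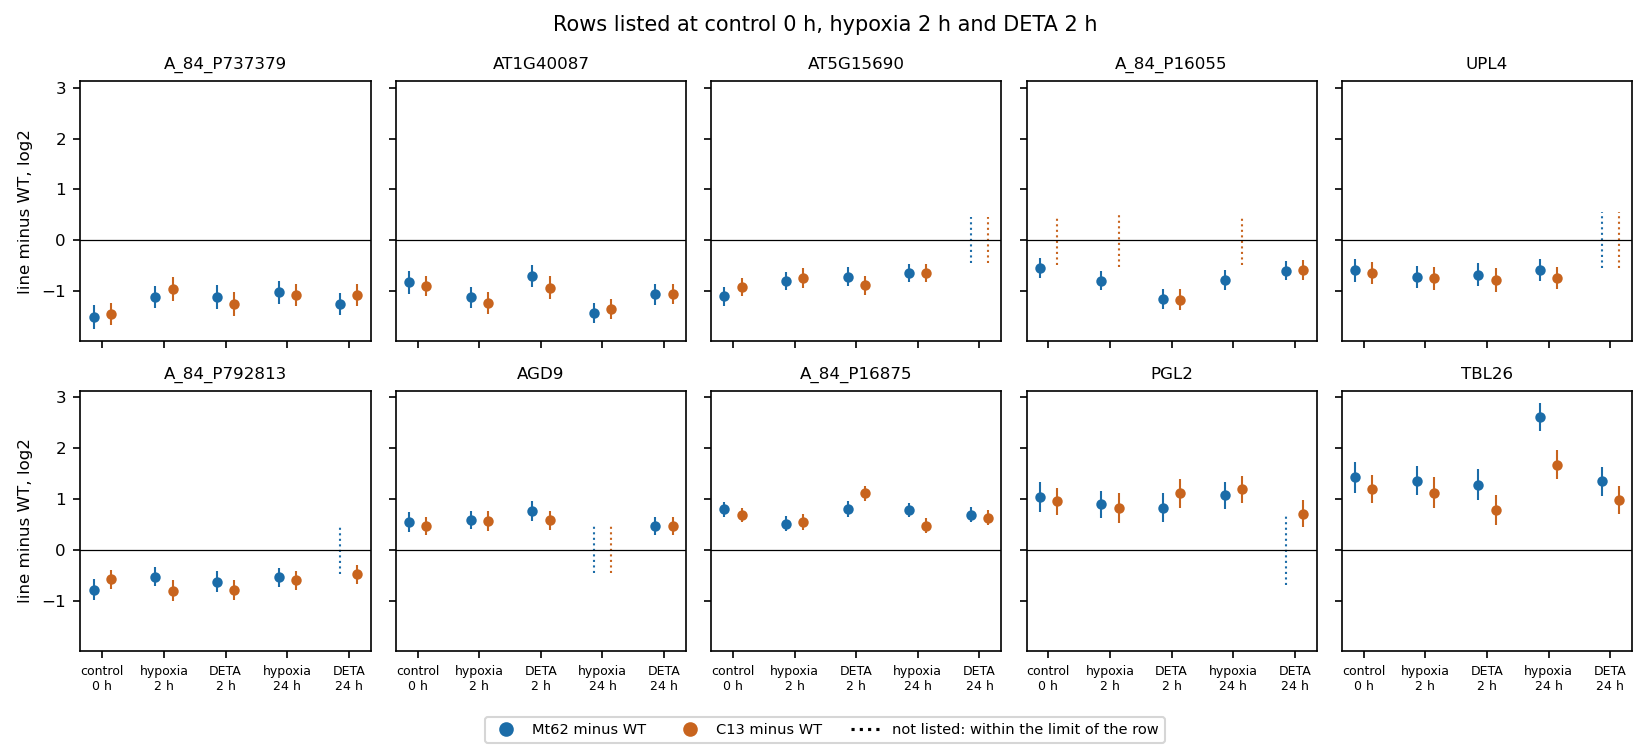
The 10 rows listed at control 0 h, hypoxia 2 h and DETA 2 h, with line minus WT (log2) over 5 conditions, blue for Mt62 and orange for C13; bars are the upper bound of the standard error, and dotted lines span the limit of a value that was not listed. The lines share their WT plants; A_84_P16055 is the row where C13 has 3 unlisted values, and TBL26 reaches 2.61 in Mt62 after 24 h of hypoxia.

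Of 21 measured genes of the clock list 2 were called higher and 3 lower in Mt62 after 2 h of hypoxia, 1 higher and 3 lower after 2 h of DETA, and 0 at 0 h. Over all genes 0.656% were called higher and 0.571% lower under hypoxia, and 0.652% higher and 0.669% lower under DETA. The list was chosen with earlier results of these data known, so these counts are no independent evidence about the clock. The clock sets the daily rhythm of transcripts through morning and evening factors that repress or activate each other, so these genes change strongly with the hour. No change of the line difference from 0 h passed adjustment over all rows in the clock genes where it could be tested, with -0.58 ± 0.38 for CCA1 from 0 h to 2 h of hypoxia (adjusted p of at most 1, unadjusted p of at most 0.13 from the bound). For CDF1 that change was -0.77 ± 0.32 (unadjusted p of at most 0.0199), for COR27 1.87 ± 0.81 (at most 0.025), and for CDF3 from 0 h to 2 h of DETA -0.90 ± 0.33 (at most 0.00873), each with an adjusted p of at most 1.

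CCA1, a repressor expressed in the morning, was lower in Mt62 by -0.84 ± 0.26 after 2 h of hypoxia and -0.73 ± 0.28 after 2 h of DETA. The computed difference was -0.27 ± 0.28 at 0 h and -0.06 ± 0.26 in untreated plants at 2 h. LNK2, a coactivator that works with morning factors, was lower in its row A_84_P820018 by -0.98 ± 0.28 under hypoxia and -0.93 ± 0.30 under DETA, with a computed -0.17 ± 0.28 in untreated plants at 2 h. Its other row A_84_P52840 was listed under DETA at -0.68 ± 0.25, with a computed -0.54 ± 0.23 under hypoxia and -0.36 ± 0.23 in untreated plants at 2 h. CDF1, a repressor of the flowering regulator CONSTANS, had -0.57 ± 0.22 under hypoxia and a computed -0.43 ± 0.24 under DETA. CDF3, of the same family, had -0.63 ± 0.24 under DETA and was not listed under hypoxia.

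FKF1, the blue-light receptor that marks CDF proteins for breakdown, was higher in Mt62 in both of its rows. The row A_84_P11493 had 0.70 ± 0.27 under hypoxia and 0.79 ± 0.29 under DETA, and the row A_84_P790167 had 0.66 ± 0.25 and 0.69 ± 0.27. In untreated plants at 2 h the computed values were 0.01 and -0.11. COR27, a cold-regulated gene tied to the clock, had 1.51 ± 0.55 under hypoxia and a computed 1.17 ± 0.60 under DETA. In untreated plants it had a computed -0.36 ± 0.60 at 0 h and 0.44 ± 0.55 at 2 h.

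3 relatives of CONSTANS that were not on the clock list are named because they ranked among the highest or lowest rows. COL9 had 1.12 ± 0.37 under hypoxia and 1.08 ± 0.40 under DETA, with a computed 0.43 ± 0.37 in untreated plants at 2 h. AT1G07050 had 1.17 ± 0.45 under DETA and a computed 0.74 ± 0.42 under hypoxia. COL2 had -0.99 ± 0.38 under hypoxia and a computed -0.84 ± 0.41 under DETA, and computed values of 0.37 ± 0.41 at 0 h and -0.24 ± 0.38 in untreated plants at 2 h.

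None of these clock and day-length values passed the adjustment over all rows. Between hypoxia and DETA the values of CCA1, FKF1, COL9 and LNK2 row A_84_P820018 differed by 0.03 to 0.11, less than the bounds of these differences, of 0.36 to 0.55. C13 minus WT, over the same WT plants, had the same directions at 2 h of hypoxia and of DETA, with -1.09 and -0.78 for CCA1, 1.31 and 1.00 for FKF1 row A_84_P11493, and 2.66 and 1.97 for COR27. TOC1, an evening factor, was not listed in Mt62, with limits of 0.99 and 1.07, and had 1.07 and 1.28 in C13; the difference between the lines was not tested.

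Between the untreated plants of 0 h and of 2 h the same transcripts changed by more than they differed between the lines. Untreated plants at 2 h against 0 h had a computed CCA1 change of -3.40 in Mt62 and -3.60 in WT. For COR27 the change was 5.28 in Mt62 and 4.48 in WT. Hypoxia at 2 h against the 2 h control changed CCA1 by 2.16 in Mt62 and 2.94 in WT, and DETA by 0.40 in Mt62 and 1.08 in WT. COR27 changed under hypoxia by -2.82 in Mt62 and -3.89 in WT, and under DETA by -2.03 and -2.76. COL9 changed under hypoxia by -2.01 in Mt62 and -2.70 in WT, and under DETA by -1.84 and -2.49. In these values hypoxia and DETA each moved CCA1 and COR27 against the change from 0 h to 2 h. Their smaller size in Mt62 restates the line difference for which these genes are named. PRR3 and ELF3 did not show it under hypoxia, with -1.68 in Mt62 and -1.63 in WT for PRR3 and -1.11 and -1.04 for ELF3. Other clock genes with no listed line difference also changed less in Mt62. ELF4 row A_84_P211628 had -2.37 in Mt62 and -3.02 in WT, AT4G33980 -2.50 and -3.48, and TOC1 -1.13 and -1.47. Whether these changes differ between the lines was not tested. The part of the hour of harvest or of handling in these changes was not tested.

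**Figure D5:**
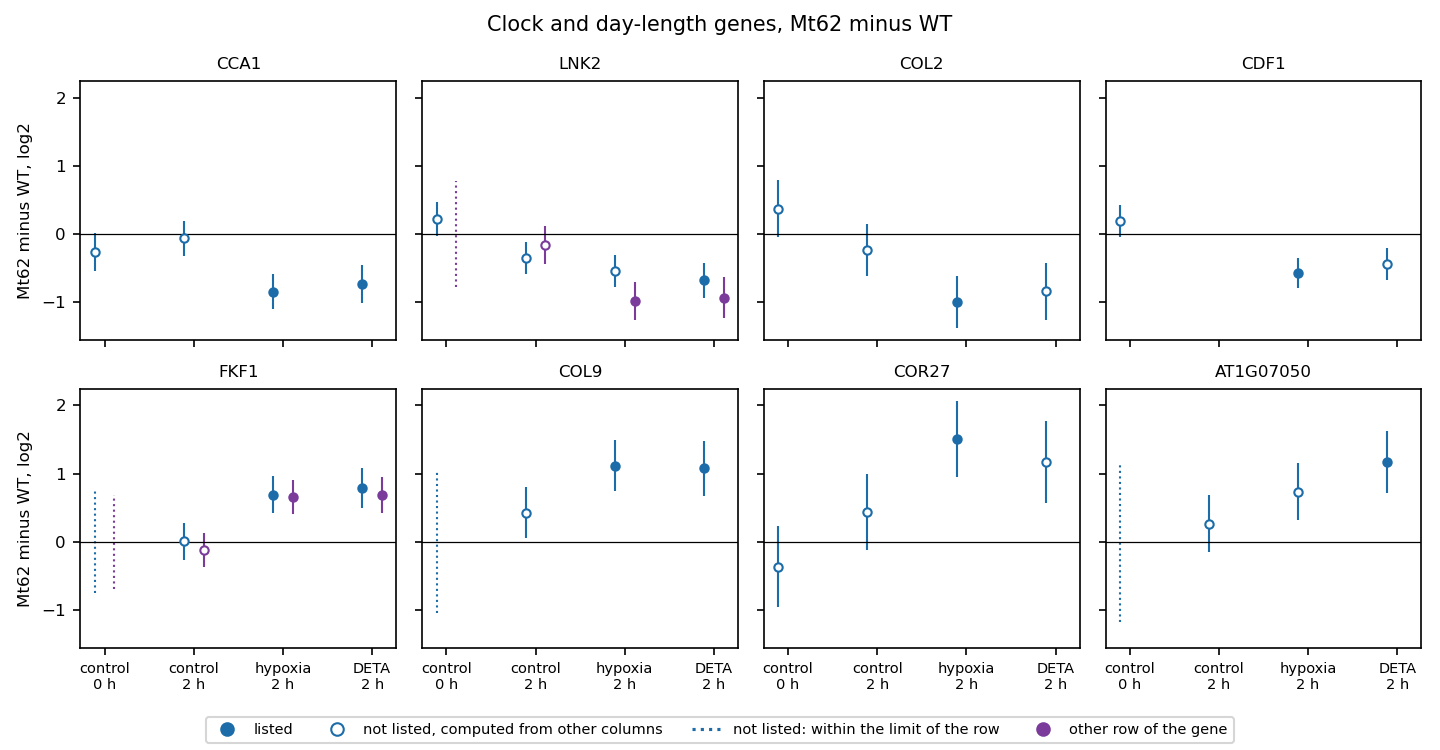
Mt62 minus WT (log2) of 8 clock and day-length genes in untreated plants at 0 h and 2 h and after 2 h of hypoxia or DETA; filled points are listed values, open points are computed from other columns, dotted lines span the limit of unlisted values, and bars are the upper bound of the standard error. CCA1, LNK2, COL2 and CDF1 lie below 0 and FKF1, COL9, COR27 and AT1G07050 above 0 after both treatments; no value is drawn where none could be computed.

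In untreated plants at 0 h the lowest named row was KIN2, a gene of the cold and abscisic acid response, at -1.94 ± 0.66. LTI65, also called RD29B and known for its induction by abscisic acid and drought, followed among the lowest at -1.15 ± 0.38. Its computed differences were -0.30 in untreated plants at 2 h, 0.14 under hypoxia and -0.14 under DETA. These 2 were the listed members of the 26 genes of the abscisic acid, cold and drought list, both lower, while over all genes 0.298% were called higher and 0.477% lower at 0 h. SIP2, a galactosidase that breaks down raffinose, had -1.06 ± 0.39 at 0 h and -2.07 ± 0.36 after 24 h of DETA. In C13 at 0 h, over the same WT plants, LTI65 had -1.07 and SIP2 -1.56, while KIN2 was not listed, with a limit of 1.57.

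MGP3, which encodes a phage-type RNA polymerase of mitochondria, was lower at 0 h by -0.98 ± 0.24 and after 24 h of DETA by -0.57 ± 0.22. It was not listed at 2 h, with limits of 0.56 under hypoxia and 0.61 under DETA. TH1, of thiamine synthesis, had -1.03 ± 0.30, AT5G55950 -1.39 ± 0.41 and AT2G37950 -1.05 ± 0.32, each at 0 h alone of the 5 comparisons with WT. In C13 at 0 h MGP3 had -0.60, over the same WT plants, while TH1, AT5G55950 and AT2G37950 were not listed. AT5G15690, described above, was also among the 8 lowest named rows.

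On the higher side at 0 h AT4G21010 had the largest value of the 3 comparisons, 2.33, with a wide bound, ± 0.88. Its other listed values all compare treated Mt62 plants with Mt62 at 0 h, a group of 3 channels, and lie between -2.61 and -2.27. AT3G16670 had 1.28 ± 0.50 and the peroxidase gene AT2G38380 had 0.99 ± 0.39, both listed at 0 h alone. AIG1, induced by a bacterial avirulence protein in Arabidopsis leaves, had 1.12 ± 0.37, and the ankyrin-repeat gene ANK had 1.00 ± 0.39. In C13 these 2 had 1.00 and 1.07 at 0 h, over the same WT plants. SPX1, which senses phosphate, had 0.93 ± 0.34 at 0 h and a computed 0.01 in untreated plants at 2 h and 0.20 under hypoxia.

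Under 2 h of hypoxia AT3G02480 was lowest, at -1.71 ± 0.66, with computed values of 0.15 at 0 h and -0.29 under DETA. AT2G27420 had -1.39 ± 0.27 and passed the adjustment over all rows (adjusted p of at most 0.0413). Its computed differences were -0.66 ± 0.30 at 0 h and -0.68 ± 0.30 under DETA, and 0.09 ± 0.27 in untreated plants at 2 h. After 24 h of DETA it was listed at -1.19 ± 0.27, and after 24 h of hypoxia it had a computed -0.15 ± 0.27. C13 minus WT, over the same WT plants, was -0.71 at 0 h, -1.20 under 2 h of hypoxia and a computed -0.50 under 2 h of DETA. At 24 h it was -0.80 under hypoxia and -1.72 under DETA. The unnamed row A_84_P851306 had 0.85 ± 0.17 and passed too (at most 0.0413), with limits of 0.47 at 0 h and under DETA. AT1G60590 had -1.09 ± 0.27 and AT2G05530 -1.02 ± 0.38, and AT3G21670 and COL2 followed them on the lower side.

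On the higher side under hypoxia AT4G21870 had 1.58 ± 0.43, with computed values of -0.05 at 0 h, 0.09 in untreated plants at 2 h and -0.17 under DETA. AT2G43140 had 1.28 ± 0.28 there, and 0.73 after 24 h of hypoxia. AT4G02170 had 1.24 ± 0.27, and AT1G17665 had 1.11 ± 0.33. GSTF10, a glutathione S-transferase, had 1.11 ± 0.23 in 1 of its 2 rows, with computed values of 0.02 at 0 h and 0.08 under DETA. It was the listed member of the 31 genes of its list. AT1G17665 kept its side under DETA, with a computed 0.47, and AT2G43140 did not, with -0.35.

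AT5G06610 was the named row furthest below WT after 2 h of DETA, at -1.83 ± 0.41. It was also lower under 2 h of hypoxia, at -1.19 ± 0.38, and after 24 h of hypoxia, at -2.08 ± 0.38. It was not listed at 0 h, with a limit of 1.05, or after 24 h of DETA, with a limit of 0.97. In C13 it was listed in none of the 5 conditions, with limits of 0.97 to 1.05. PP2-A5, a phloem lectin-like protein, had -1.42 ± 0.41 after 2 h of DETA and stood on the other side after 24 h of hypoxia, at 1.23 ± 0.38.

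AP19, a small subunit of a clathrin adaptor, had -1.38 ± 0.45 under DETA, and ATS1, an acyltransferase of chloroplast lipid synthesis, had -1.26. LNG1, which promotes the lengthwise growth of leaf cells, had -1.05 ± 0.38, and PSK2, a precursor of the peptide hormone phytosulfokine, had -1.04 ± 0.40. On the higher side AT4G33467 had 1.38 ± 0.39, the plant defensin PDF1.2b 1.21 ± 0.47, AT3G62550 1.15 ± 0.37 and AT1G27020 1.09 ± 0.42. Of these 8 rows none was listed at 0 h or under hypoxia.

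Of the rows listed in 2 comparisons with the same direction, AT5G06610, COL9 and the unnamed A_84_P756021 had a value of 1 or more in size. 23 of the 33 were listed under hypoxia and DETA, 8 at 0 h and under hypoxia, and 2 at 0 h and under DETA. SAG29, a sugar transporter of ageing leaves, had -0.95 ± 0.36 at 0 h and -0.97 ± 0.33 under hypoxia, with a computed -0.26 under DETA. CESA5, a cellulose synthase subunit, had -0.41 ± 0.13 at 0 h and -0.61 ± 0.13 under DETA, and a computed 0.07 under hypoxia. CLC-B, an anion transporter of the vacuole membrane, had -0.54 ± 0.18 at 0 h and -0.65 ± 0.18 under DETA, and a computed -0.11 under hypoxia. These were the 2 rows listed at 0 h and under DETA.

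XPB2, a DNA helicase of transcription and repair, had -0.56 ± 0.17 under hypoxia and -0.53 ± 0.19 under DETA, and -0.53 and -0.64 after 24 h of each. PK1, a kinase of ribosomal protein S6, had -0.41 ± 0.16 and -0.52 ± 0.17 at 2 h, and a computed value close to 0 at 0 h. AT5G46780 had 0.76 ± 0.25 and 0.96 ± 0.27, the peroxidase gene AT2G37130 0.66 ± 0.23 and 0.84 ± 0.25, and the thioredoxin-like CXXS1 0.62 ± 0.15 and 0.47 ± 0.16. RR24, a response regulator of phosphorelay signalling, had 0.37 ± 0.12 and 0.44 ± 0.13. AT5G38760 had 0.37 ± 0.10 and 0.34 ± 0.11 at 2 h and stood on the other side after 24 h of hypoxia, at -0.31 ± 0.10. AT3G19780 was higher at 0 h, by 0.47 ± 0.17, and under hypoxia, by 0.55 ± 0.15. The unnamed A_84_P756021 was lower at 0 h, at -1.03 ± 0.28, and under hypoxia, at -0.84 ± 0.26, as was AT4G04775, at -0.85 ± 0.23 and -0.84 ± 0.21. The smallest of the values was -0.28, for A_84_P760278 under hypoxia.

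8 genes known from the responses to low oxygen and nitric oxide had no listed difference between Mt62 and WT at these times. ADH1 and PDC1, of ethanol fermentation, the plant haemoglobins HB1, HB2 and HB3, the alternative oxidase AOX1A and the nitrate reductases NIA1 and NIA2 were all unlisted in the 3 comparisons. HB2 was listed later, at 0.95 ± 0.31 after 24 h of DETA. The limits differ widely. For AOX1A they were 0.97 at 0 h, 0.90 under hypoxia and 0.97 under DETA, and for the tighter NIA2 row A_84_P803652 0.48, 0.45 and 0.48. For ADH1, PDC1 and HB1 the limits under hypoxia lay between 2.87 and 3.89, so the table does not exclude a change of several fold in these 3. For HB3 the limits were 1.99 at 0 h, 1.85 under hypoxia and 1.99 under DETA, so such a change is not excluded there either. GSNOR1, the S-nitrosoglutathione reductase, has no named row and was not analysed here.

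In all 23 gene lists, of 416 genes with 402 measured, 0 members were higher and 4 lower at 0 h, 5 higher and 6 lower under hypoxia, and 2 higher and 3 lower under DETA. That is 0.995% of the measured members at 0 h, 2.74% under hypoxia and 1.24% under DETA, against 0.775%, 1.23% and 1.32% of all genes. The shares at 0 h and under DETA are near those of all genes. No member was listed in 16 of the lists, among them ethylene, heat shock, jasmonate, salicylate and pathogen defence, iron, photosynthesis, alternative respiration, mitochondrial dysfunction and mitochondrial electron transport. The median over all called genes was -0.36 at 0 h, 0.30 under hypoxia and -0.27 under DETA. Of 12 genes of fermentation and oxygen sensing the lactate dehydrogenase gene AT4G17260 was higher under hypoxia, by 0.69. Of 18 antioxidant enzymes CSD2, the copper/zinc superoxide dismutase of chloroplasts, was lower under hypoxia, at -0.86. GR1, a glutathione reductase, was lower at 0 h, at -0.48, in 1 of its 2 rows.

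The called members of these lists and of the next 2 are few, and with 1.23% of all genes called under hypoxia nothing is read from them about the lists. Of 19 flavonoid genes DFR, of anthocyanin synthesis, was lower at 0 h, at -0.57, PAL1, the entry enzyme of phenylpropanoids, was lower under hypoxia, at -0.57, and PAP1, a regulator of anthocyanins, was higher under DETA, by 0.53. Of 18 measured glucosinolate genes 2 regulators of indole glucosinolates parted under hypoxia, with 0.83 for MYB51 and -0.77 for MYB34. The clock list, with 5 of 21 genes called under hypoxia and 4 of 21 under DETA, held the most called members of the 23 lists in these conditions. Its genes were chosen with earlier results of these data known, so nothing is read from that rank.

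The difference between conditions was tested for the rows where 2 of the values could be had. Hypoxia minus 0 h could be computed for 409 rows, DETA minus 0 h for 334 and DETA minus hypoxia for 294. After adjustment over all rows 0 passed in each (0% of the array), and at an unadjusted p of 0.05, from the same bound, 96, 59 and 53 rows passed. The smallest adjusted p was at most 0.221, 0.0942 and 1. A row listed in 1 condition is therefore not shown to differ from the others there.

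Of the listed rows whose gene had another row on the array, a further row was listed in the same direction for 0 of 20 at 0 h, 15 of 53 under hypoxia and 6 of 50 under DETA. In the opposite direction it was listed for 0, 2 and 0, the 2 being the rows of TBL26. Of all rows of the array 0.706%, 1.17% and 1.19% were listed in the same order of conditions. AT4G28080 had 3 of its 5 rows listed under hypoxia, at -0.69, -0.54 and -0.60, and AT5G07580 had both, at 0.86 and 0.68. AT2G37130, AT3G19780, RAD51C and AT1G05150 have 2 rows each, and the other row was not listed beside the one whose values are given. Among called genes that lie within 2 places of each other in the gene order of the TAIR10.1 annotation, hypoxia had 8 pairs among 301 genes, DETA 6 pairs among 324 and 0 h 3 pairs among 190. Their members had the same direction in 7 of 8, 4 of 6 and 2 of 3 pairs, and the number of pairs that gene order alone gives was not computed. The cellulose synthase-like genes CSLB03 and CSLB04 had -0.74 and -0.88 under hypoxia, and the squalene epoxidase genes SQP1 and SQE6 with AT5G24155 between them had -0.69, -0.42 and -0.94. PGL2 and AT3G49340 stood on opposite sides under hypoxia, at 0.89 and -0.43, as did PnsL3 and AT3G01450 under DETA, at 0.85 and -0.29, AT1G17970 and PAPS1 under DETA, at 0.50 and -0.42, and PAF1 and DFR at 0 h, at 0.26 and -0.57. Members of 1 family may share probe signal, and that was not tested.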

How the data were processed

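RNA of shoots was hybridised to Agilent arrays with 3 samples in 3 dyes per field, on 7 slides with 27 fields and 81 channels, per the labels' protocols. Per the series design text, the authors applied quantile normalisation, a modified ComBat batch correction and an empirical Bayes test in R and Bioconductor, and set values with p above 0.01 to null. The deposited values are log2 fold changes between 2 groups (the base is assumed); signal over background, which sets an array's precision, is not in the table. The sources used here name no genome build.

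Rows were named by accession (24525), by symbol or synonym (1822) or as given (19) through the TAIR10.1 annotation; 8192 rows have no gene and 60 are control rows, 0 of them listed in the 3 comparisons. A gene was called where its listed rows agreed in sign. Columns add up over closed loops to within 2e-09. For the bound, listed values were scaled to their channel numbers (by the root of 1/n summed over both groups), and the smallest of a row was divided by the normal quantile for 1%. Its t distribution had 60 degrees of freedom, and unlisted rows entered the adjustment as not passing. The procedure was tested on simulated data.

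Named were all rows listed in 3 comparisons, the 8 highest and 8 lowest named rows per comparison and rows past adjustment. A fixed set of oxygen and nitric oxide genes was named too, and up to 4 members per list, with more for the clock list. Of rows listed in 2 comparisons the 12 highest and 12 lowest were planned. Not all of these were named, with ATCSLB05 and AT1G11370 among those left out, and some others such as AT5G38760 were named. Computed values of named genes, A_84_P818915, and the rows and neighbours at the end were chosen after their values were seen. Members and lists were chosen with earlier results of these data known, and the lists were written for this work because the earlier list table was not at hand. Alternatives were a size of at least 1, genes as the unit, adjustment, computed values added, other bounds and other channel numbers. Python 3.11.15, pandas 2.3.3, numpy 2.4.6 and scipy 1.17.1 were used.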

Additional observations from a re-analysis of the deposited data

Results flagged for a closer look

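9 rows were listed in opposite directions at 0 h and at 2 h, which drew attention to them; by the test of the difference between the 2 conditions, adjusted over all rows, none passed. At 0 h and after 2 h of hypoxia, 5 rows did so. Mt62 minus WT was -0.81 and 0.70 for A_84_P259140, and 0.55 and -0.54 for CYP78A9, a cytochrome P450. It was -0.34 and 0.37 for RAD51C, a protein of DNA recombination, and -0.45 and 0.50 for AT3G06520. A_84_P794191 had -0.42 and 0.52. At 0 h and after 2 h of DETA, 4 rows did so. AT1G05150 had 0.36 and -0.41, and NPY4 had 0.37 and -0.33. AT3G01450 had 0.35 and -0.29, with an adjusted p of the difference of at most 0.0942, and AT1G55152 had -0.38 and 0.46. Samples of opposite lines shared array fields in these pairs of comparisons, on 2 fields for hypoxia and 1 for DETA, and the part of those fields was not tested. RAD51C stands beside AT2G45290, a transketolase gene, which had 0.35 after 2 h of hypoxia and -0.39 after 24 h of hypoxia, where RAD51C had -0.46.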

How the results depend on the processing

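With a size of at least 1 required, 18, 24 and 19 rows were left at 0 h, hypoxia and DETA, 4 rows were left in 2 or 3 comparisons and 2 in all 3. With adjustment over all rows, 3, 4 and 2 rows were left. With genes as the unit, 5 were listed in all 3 comparisons, since the 2 rows of TBL26 disagree and 4 of the 10 rows have no gene. With computed values added, 220 rows had values in 2 or 3 comparisons and 70 in all 3; these include values that missed the threshold of the authors. With the t quantile as divisor, 4 rows passed adjustment under DETA and 6 under hypoxia. The other 24 results under an alternative kept within 1.5 times their count, among them leaving out the control rows of the array, which was added after seeing the data. Channel numbers in the descriptions are not certain, and other numbers left 3, 3 and 2 rows past adjustment. No paired analysis was possible because the table holds differences of group means without a value per replicate, and for the same reason no replicate could be left out. Signal over background is not in the table, so what dim probes limit could not be assessed.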
